A study of Mus musculus with 42 samples.

Results

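Collagen-modifying enzymes of the mouse retina are described here through 10 genes: the prolyl 4-hydroxylase subunits *P4ha1*, *P4ha2*, *P4ha3* and *P4hb*, the lysyl hydroxylases *Plod1*, *Plod2* and *Plod3*, and the lysyl oxidases *Lox*, *Loxl1* and *Loxl2*. They were taken by gene symbol from a deposited expression table of 25700 genes, in which all 10 were found. RNA was sequenced from retinas of 42 C57BL/6J mice in 7 groups of 6. Normobaric chambers at 400 m above sea level held 7% O2 for 6 h (07-06h-ZH) or 14% O2 for 6 h (14-06h-ZH), 48 h (14-48h-ZH) or 11 weeks (14-11w-ZH). The groups 14-48h-JFJ and 14-07w-JFJ lived for 48 h and 7 weeks at 3450 m, where the lower barometric pressure of about 65 kPa gives an oxygen partial pressure close to that of the 14% O2 chambers. Normoxic controls breathed 21% O2 at 400 m for 11 weeks. Ages when exposure began lay between 9 and 11 weeks, and because of the long control period normoxic mice were sampled at a greater age than mice exposed for 6 h, 48 h or 7 weeks. Per the study's methods, the JFJ mice were also transported to the station and kept on a different light cycle. Y-linked genes were expressed in 6 of 6 mice in 14-11w-ZH and in Normoxia and in 3 of 6 mice in each other group, and the sample codes in the labels fall into 5 series that are shared only by 14-11w-ZH with Normoxia and by 14-48h-ZH with 14-06h-ZH. In the other comparisons the code series and the exposure cannot be told apart. Neither can age at sampling and exposure where groups exposed for 6 h, 48 h or 7 weeks are set against Normoxia. The groups 14-07w-JFJ and 14-11w-ZH also differ in length of exposure, age at sampling and the number of mice that express Y-linked genes.

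Fibrillar and basement membrane collagens are modified inside the endoplasmic reticulum before they are secreted. Prolyl 4-hydroxylase, a tetramer of alpha subunits (*P4ha1*, *P4ha2* or *P4ha3*) and the protein disulfide isomerase *P4hb*, hydroxylates proline residues, which stabilizes the collagen triple helix. Lysyl hydroxylases (*Plod1* to *Plod3*) hydroxylate lysines, and secreted lysyl oxidases (*Lox*, *Loxl1*, *Loxl2*) oxidize lysines of collagen and elastin so that the fibres can be cross-linked. The hydroxylases use molecular oxygen as a substrate, and several of these genes are known targets of the hypoxia-inducible factors (HIF), which bind a short core motif, A or G followed by CGTG. *P4hb* also acts as a general disulfide isomerase, outside the hydroxylase.

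Promoters of 6 of the 10 genes were matched in a RefSeq table of build GRCm38.p6, covering 250 bases before to 50 bases after the transcription start. The 3 shown belong to prolyl 4-hydroxylase genes that were higher after 6 h at 7% O2. Capitals mark the motif ACGTG or GCGTG or, for the other strand, CACGT or CACGC, with overlapping matches counted separately.
P4ha1 (chr10:59323046-59323345, + strand): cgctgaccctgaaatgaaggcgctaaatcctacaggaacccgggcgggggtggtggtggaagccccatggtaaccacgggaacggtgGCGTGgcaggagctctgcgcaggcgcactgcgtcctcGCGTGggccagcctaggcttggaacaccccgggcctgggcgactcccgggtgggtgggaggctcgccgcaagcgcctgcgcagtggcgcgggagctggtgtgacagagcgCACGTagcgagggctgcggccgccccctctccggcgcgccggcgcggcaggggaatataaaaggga
P4ha2 (chr11:54100674-54100973, + strand): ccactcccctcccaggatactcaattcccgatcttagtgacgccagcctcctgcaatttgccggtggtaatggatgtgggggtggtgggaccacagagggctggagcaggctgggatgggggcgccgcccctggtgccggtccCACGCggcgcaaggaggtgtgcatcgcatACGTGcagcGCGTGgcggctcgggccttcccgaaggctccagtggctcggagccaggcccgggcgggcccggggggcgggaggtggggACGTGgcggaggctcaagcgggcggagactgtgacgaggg
P4hb (chr11:120573204-120573503, - strand): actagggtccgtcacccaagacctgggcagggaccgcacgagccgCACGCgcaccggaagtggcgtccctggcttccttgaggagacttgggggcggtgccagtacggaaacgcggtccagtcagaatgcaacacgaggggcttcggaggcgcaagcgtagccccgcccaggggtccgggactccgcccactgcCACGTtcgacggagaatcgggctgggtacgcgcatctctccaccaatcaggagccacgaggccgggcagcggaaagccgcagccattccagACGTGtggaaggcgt

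The *P4ha1* promoter held 3 matches, that of *P4ha2* 4 and that of *P4hb* 3. Of the promoters that are not shown, *Plod3* had 4 matches, *Plod1* 2 and *P4ha3* 0. At least 1 match was present in 43.8% of the 32851 promoters of the table, at least 3 matches in 8.93% and at least 4 in 3.86%. A match is a description of these letters. The RefSeq start of *P4ha2* (54100924) lies inside the gene as the deposited table gives it (chromosome 11, 54100095 to 54131665), whereas the starts of *P4ha1* (chromosome 10, 59323296 to 59373304, + strand) and *P4hb* (chromosome 11, 120560298 to 120573253, - strand) coincide with it.

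The libraries held 13986476 to 33594714 reads in genes. All 5 rod markers were expressed in every group, with a summed level of 34239 to 51667 FPKM (reads scaled by gene length and library size, so that levels of different genes can be compared). Libraries differed in RNA of neighbouring tissues. The 5 lens markers (*Cryaa*, *Cryba1*, *Crybb2*, *Crygs*, *Bfsp1*) summed to 0.10 to 996 FPKM in 30 libraries and to 2770 to 43730 FPKM in the other 12, of which 07-06h-ZH had 0, 14-06h-ZH 3, 14-48h-JFJ 2, 14-48h-ZH 2, 14-07w-JFJ 1, 14-11w-ZH 2 and Normoxia 2. The 6 pigment cell markers had a median sum of 164 FPKM in 14-48h-JFJ and 339 FPKM in 14-07w-JFJ, against 13.01 to 54.0 FPKM in the other groups.

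Across the 10 genes, transcript levels in normoxic retinas spanned more than 3 orders of magnitude. *P4hb* was the most abundant with 126 ± 4.28 FPKM (SD, n = 6 for this and all following means). *P4ha2* (21.9 ± 2.75 FPKM) and *P4ha1* (19.96 ± 0.92 FPKM) followed with overlapping ranges. *Plod3* (15.9 ± 1.86 FPKM), *Plod1* (13.5 ± 1.26 FPKM) and *Plod2* (11.5 ± 1.82 FPKM) also overlapped with their neighbours in this order. The lysyl oxidases were lower, with *Loxl1* at 3.19 ± 1.43 FPKM and *Loxl2* at 1.98 ± 0.90 FPKM, which overlapped. The alpha subunit *P4ha3* had 0.41 ± 0.08 FPKM, which rested on 11 to 16 reads per library, and *Lox* was detected with 0 to 9 reads per library.

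After 6 h at 7% O2 in 07-06h-ZH, 4 of the 10 genes were higher than in Normoxia and 0 were lower (adjusted p of at most 0.05, limma, with 0 lower at an unadjusted p under 0.05 and 0 by edgeR), namely *P4ha1*, *P4ha2*, *P4hb* and *Plod2*, against 18.0% of all 16962 genes tested called higher and 24.0% called lower. In the main fit, with all mice and no covariate on log2(FPKM + 0.1), none of the 10 genes reached a log2 fold change of 1 in any of the 10 comparisons. Some alternatives exceeded 1, with up to 1.25 for *Lox* in 07-06h-ZH against Normoxia and 1.24 for *P4ha2* in 07-06h-ZH against 14-06h-ZH. For 07-06h-ZH against Normoxia the median log2 fold change was 0.16 over the 10 genes and -0.03 over all genes. Endothelial markers had a sum of 37.4 to 46.4 FPKM in 07-06h-ZH, against 49.5 to 56.3 FPKM in Normoxia (2 of 5 called higher and 2 lower), and 2 of 5 red blood cell markers were called higher, with a sum of 87.6 to 1877 FPKM in 07-06h-ZH, against 23.4 to 555 FPKM in Normoxia. Stromal fibroblast markers were called higher in 2 of 6 and lower in 1 (15.4 to 17.9 FPKM in 07-06h-ZH, against 5.82 to 20.9 FPKM in Normoxia). Of 5 rod markers 2 were called higher and 3 lower (42088 to 45413 FPKM in 07-06h-ZH, against 39504 to 44119 FPKM in Normoxia). Their part in the result was not tested. In whole retinas, fewer cells of a type and less RNA per cell cannot be told apart.

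*P4hb*, the disulfide isomerase subunit, was the only one of the 10 genes called higher in 4 of the 6 comparisons with Normoxia. Its lowest, median and highest values were 173, 189 and 196 FPKM in 07-06h-ZH, against 120, 127 and 130 FPKM in Normoxia. All 6 hypoxic retinas lay above all 6 normoxic ones (log2 fold change 0.56, adjusted p = 2.0e-08, SE 0.04). At 14% O2 it measured 151, 157 and 167 FPKM after 6 h, which again did not overlap with Normoxia (log2 fold change 0.32, SE 0.04, adjusted p = 3.9e-06). After 48 h at 14% O2 the values were 147, 151 and 163 FPKM (log2 fold change 0.28, SE 0.03, adjusted p = 6.9e-06). In 14-48h-JFJ they were 132, 142 and 153 FPKM, also without overlap with Normoxia (log2 fold change 0.18, SE 0.04, adjusted p = 0.016), and 24 of 28 alternatives kept this call. It was lost with no filter (adjusted p = 0.054), with no trend and robust options (0.051), and with the Y-linked (0.056) or pigment marker level (0.0505) as a covariate. Long exposure left *P4hb* close to Normoxia, with 129 ± 4.06 FPKM in 14-07w-JFJ and 129 ± 1.07 FPKM in 14-11w-ZH, and 95% intervals of the log2 fold change of -0.04 to 0.10 and of -0.03 to 0.09. All these comparisons share the 6 normoxic mice. The groups exposed for 6 h, 48 h or 7 weeks were also younger at sampling than Normoxia, so age and length of exposure cannot be told apart here. Direct comparison placed *P4hb* higher in 07-06h-ZH than in 14-06h-ZH by 0.24 on the log2 scale (SE 0.04, adjusted p = 2.3e-04), without overlap between the groups. Without the lens-rich libraries this was 0.20 (adjusted p = 0.014), and with the lens marker level as a covariate it was 0.12 and did not pass (adjusted p = 0.097). In contrast, *P4hb* in 14-48h-ZH and 14-06h-ZH differed by -0.04 (95% interval -0.12 to 0.03).

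**Figure D1:**
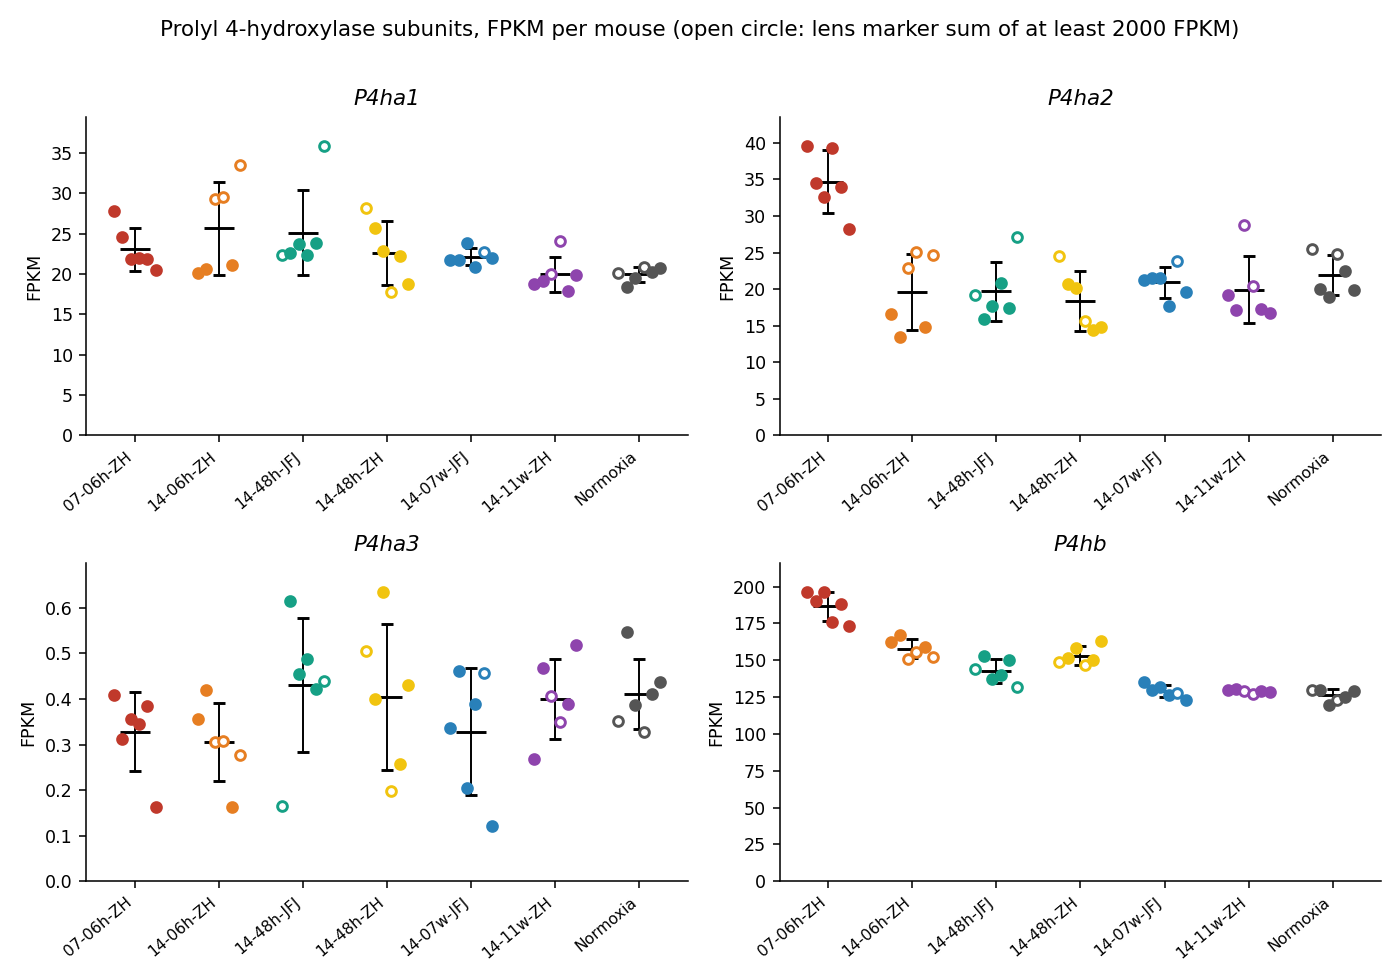
Level in FPKM (vertical axis, from 0) of the prolyl 4-hydroxylase subunits in each of the 42 retinas, by group along the horizontal axis. Circles are mice, open where the lens marker sum was at least 2000 FPKM, and black marks are the mean and SD of 6 mice. The 6 mice of 07-06h-ZH lie above all normoxic mice for *P4ha2* and *P4hb*, and the 3 highest *P4ha1* values of 14-06h-ZH are open circles.

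The alpha subunits did not move together. *P4ha2*, one of the catalytic subunits, had lowest, median and highest values of 28.3, 34.2 and 39.6 FPKM in 07-06h-ZH, against 19.0, 21.2 and 25.4 FPKM in Normoxia. The groups did not overlap. The mean FPKM was 1.58-fold higher in 07-06h-ZH (log2 fold change 0.66, adjusted p = 1.9e-05, SE 0.09). *P4ha1*, the other widely expressed catalytic subunit, had 20.4, 21.9 and 27.7 FPKM in 07-06h-ZH, against 18.4, 20.2 and 20.9 FPKM in Normoxia. Its groups overlapped, and the call (log2 fold change 0.20, SE 0.07, adjusted p = 0.025) missed the threshold in 5 of 28 alternatives, namely without mouse 2 of 07-06h-ZH (adjusted p = 0.056) or mouse 2 of Normoxia (0.058), with no filter (0.060), with the lens marker level as a covariate (0.097) and with all 7 groups in one fit (0.14).

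At 14% O2 for 6 h, 3 of the 10 genes were called higher and 0 lower (*P4ha1*, *P4hb* and the lysyl hydroxylase *Plod1*), against 9.54% of 17108 genes called higher and 24.8% called lower (0 members lower by edgeR, and *Plod3* alone at an unadjusted p under 0.05). With median-of-ratios scaling in place of FPKM the genes called were 2680 higher and 2975 lower, compared with 1632 higher and 4240 lower on FPKM, and the same counts of 3 and 0 held for the 10 genes. *P4ha1* had 20.2, 25.2 and 33.5 FPKM in 14-06h-ZH as lowest, median and highest value (log2 fold change over Normoxia 0.33, SE 0.12, adjusted p = 0.045). The 3 highest values of the group, 29.2, 29.5 and 33.5 FPKM, came from the 3 mice with lens marker sums of at least 2000 FPKM, and the other 3 mice had 20.2, 20.6 and 21.1 FPKM. Without libraries of such a lens sum, 3 mice remained in 14-06h-ZH and 4 in Normoxia, and the log2 fold change was 0.07 (adjusted p = 0.55), so the call was lost. Epithelial markers moved as well in 14-06h-ZH, with 4 of 4 called higher and a sum of 5.37 to 12.3 FPKM, against 1.91 to 4.59 FPKM in Normoxia. Endothelial markers were called higher in 3 of 5 with 1 lower (49.8 to 55.9 FPKM in 14-06h-ZH, against 49.5 to 56.3 FPKM in Normoxia). Smooth muscle and pericyte markers were called higher in 2 of 6 (32.8 to 65.2 FPKM in 14-06h-ZH, against 26.3 to 82.8 FPKM in Normoxia). The part of these cell types in the result was not tested. Leaving out any 1 of the 6 normoxic mice, or any 1 of the 3 lens-rich hypoxic mice, also took the adjusted p of *P4ha1* above 0.05.

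*P4ha2* behaved differently under 14% O2. In 14-06h-ZH it had 13.4, 19.8 and 25.1 FPKM, against 19.0, 21.2 and 25.4 FPKM in Normoxia, and did not pass the test (log2 fold change -0.20, 95% interval -0.56 to 0.17). Without the lens-rich libraries the log2 fold change was -0.44 (SE 0.09, adjusted p = 0.0049). The difference between both oxygen levels was tested directly: *P4ha2* was higher in 07-06h-ZH than in 14-06h-ZH by 0.86 on the log2 scale (SE 0.16, adjusted p = 9.9e-04) with no overlap between groups, and by 1.20 (adjusted p = 3.7e-06) without the lens-rich libraries. *P4ha1* showed no such difference (log2 fold change -0.13, 95% interval -0.41 to 0.14).

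In terms of composition, *P4ha2* made up 59.7 ± 2.20% of the summed alpha subunit FPKM in 07-06h-ZH, against 51.7 ± 2.77% in Normoxia, and *P4ha1* 39.8 ± 2.25% against 47.3 ± 2.64%. In 14-06h-ZH the order was the other way round, with 42.8 ± 2.49% for *P4ha2* and 56.5 ± 2.39% for *P4ha1*. *P4ha1* also had the larger mean share in 14-48h-JFJ (55.5%, against 43.5% for *P4ha2*), 14-48h-ZH (54.7% against 44.3%) and 14-07w-JFJ (51.1% against 48.2%). In 14-11w-ZH the 2 shares were nearly equal (49.85 ± 4.85% and 49.14 ± 4.98%). The share of *P4ha2* was 57.9% to 63.8% in the mice of 07-06h-ZH and 39.0% to 45.7% in those of 14-06h-ZH, and thus did not overlap. *P4ha3* contributed 0.56% to 1.0% in the group means. Its level ranged from 0.12 to 0.64 FPKM over the 42 retinas, with 4 to 24 reads per library, and it passed the test in none of the 10 comparisons by limma or edgeR, with 0 at an unadjusted p under 0.05 (lowest 0.074).

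**Figure D2:**
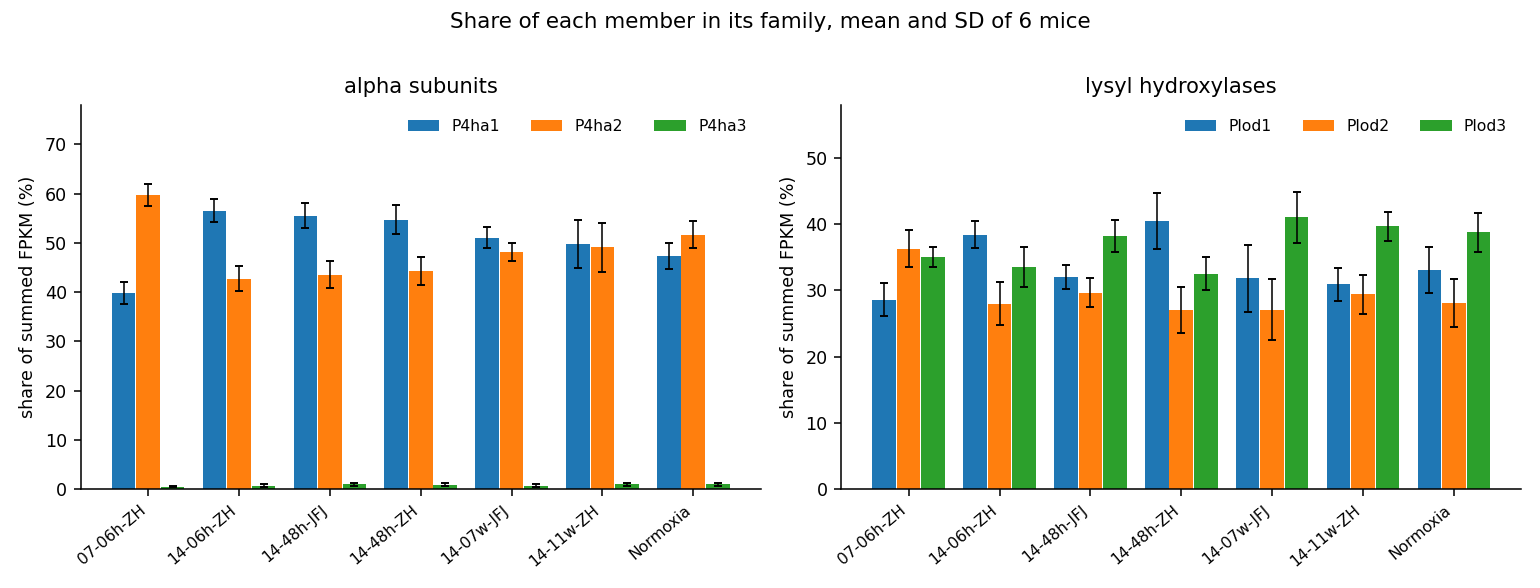
Share of each alpha subunit (left) and lysyl hydroxylase (right) in the summed FPKM of its family, in percent, by group. Bars are means and whiskers SD of 6 mice. *P4ha2* takes 59.7% in 07-06h-ZH and 51.7% in Normoxia, and *P4ha1* is the larger alpha subunit in 14-06h-ZH.

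Among the lysyl hydroxylases, *Plod2*, whose product hydroxylates lysines in the collagen telopeptides, followed *P4ha2*. It had 15.8, 17.2 and 20.9 FPKM in 07-06h-ZH as lowest, median and highest value, against 9.66, 11.1 and 13.9 FPKM in Normoxia, without overlap. The log2 fold change was 0.63 (SE 0.10, adjusted p = 7.4e-05), and 0.77 (adjusted p = 1.2e-05) without the lens-rich libraries. The calls of *P4ha2*, *P4hb* and *Plod2* in 07-06h-ZH passed in each of 28 alternative analyses. In 14-06h-ZH *Plod2* had 9.19 to 15.2 FPKM and differed from Normoxia by 0.03 (95% interval -0.28 to 0.33), and it was higher in 07-06h-ZH than in 14-06h-ZH by 0.61 (SE 0.12, adjusted p = 9.0e-04). *Plod2* and *P4ha2* were also each other's closest genes by Pearson correlation over the 42 mice (r = 0.85 on log2(FPKM + 0.1), among 13288 genes with a mean of at least 1 FPKM), a description over libraries that share lens RNA and groups. A gene on the opposite strand, *Gm38391*, overlaps *Plod2*, and the strand setting of the counting is not given in the sources used here.

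*Plod1*, which hydroxylates lysines within the collagen helix, had 14.5, 15.8 and 18.8 FPKM in 14-06h-ZH, against 12.6, 13.04 and 15.96 FPKM in Normoxia. The groups overlapped in 1 normoxic mouse with 15.96 FPKM, and the log2 fold change was 0.25 (SE 0.07, adjusted p = 0.014). Without the lens-rich libraries it was 0.11 (adjusted p = 0.44), and with the Y-linked level as a covariate 0.20 (adjusted p = 0.14). After 48 h at 14% O2, 2 of the 10 genes were called higher (*P4hb* and *Plod1*) and 1 lower (*Plod3*), against 9.48% of 17041 genes called higher and 26.7% called lower. Median-of-ratios scaling gave 2863 genes higher and 2934 lower, compared with 1615 and 4553 on FPKM, and kept the 3 calls, while edgeR also called *P4ha1* higher (0.24 with TMM scaling, adjusted p = 0.043). *P4ha1* was called higher as well with the Y-linked covariate (0.37, adjusted p = 0.0023) and without mouse 4 of 14-48h-ZH (0.22, adjusted p = 0.046), and *P4ha2* was called lower without mouse 1 of 14-48h-ZH (-0.36, adjusted p = 0.023). *Plod1* measured 13.9, 15.8 and 16.9 FPKM in 14-48h-ZH (log2 fold change 0.21, SE 0.06, adjusted p = 0.014), and this call was lost without the lens-rich libraries (0.17, adjusted p = 0.16) and with the Y-linked covariate (0.16, adjusted p = 0.16). In this comparison 4 of 5 endothelial markers were called higher, with a sum of 62.4 to 74.0 FPKM in 14-48h-ZH, against 49.5 to 56.3 FPKM in Normoxia. Epithelial markers were called higher in 3 of 4 (3.66 to 16.6 FPKM in 14-48h-ZH, against 1.91 to 4.59 FPKM in Normoxia), rod markers in 3 of 5 with 1 lower (47466 to 51667 FPKM in 14-48h-ZH, against 39504 to 44119 FPKM in Normoxia), and 1 of 6 pigment cell markers was lower (6.20 to 34.9 FPKM in 14-48h-ZH, against 4.67 to 272 FPKM in Normoxia). The part of these cell types in the results was not tested. In 07-06h-ZH *Plod1* had 11.0 to 16.2 FPKM (log2 fold change over Normoxia 0.05, 95% interval -0.13 to 0.24).

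*Plod3*, a lysyl hydroxylase that also carries glycosyltransferase activity, was the single member called lower than in Normoxia. In 14-48h-ZH it had 11.3, 12.5 and 14.1 FPKM, against 14.2, 14.9 and 18.4 FPKM in Normoxia. The highest hypoxic value lay just under the lowest normoxic one, and the log2 fold change was -0.32 (SE 0.08, adjusted p = 0.0047). It remained past the threshold without the lens-rich libraries (-0.32, adjusted p = 0.022), and with the Y-linked level as a covariate it was -0.18 (adjusted p = 0.14). In 14-06h-ZH the log2 fold change over Normoxia was -0.18 (adjusted p = 0.082, and 0.048 without mouse 1 of Normoxia), and *Plod3* was higher in 07-06h-ZH than in 14-06h-ZH by 0.30 (SE 0.07, adjusted p = 0.0039). *Znhit1* overlaps *Plod3* on the opposite strand.

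**Figure D3:**
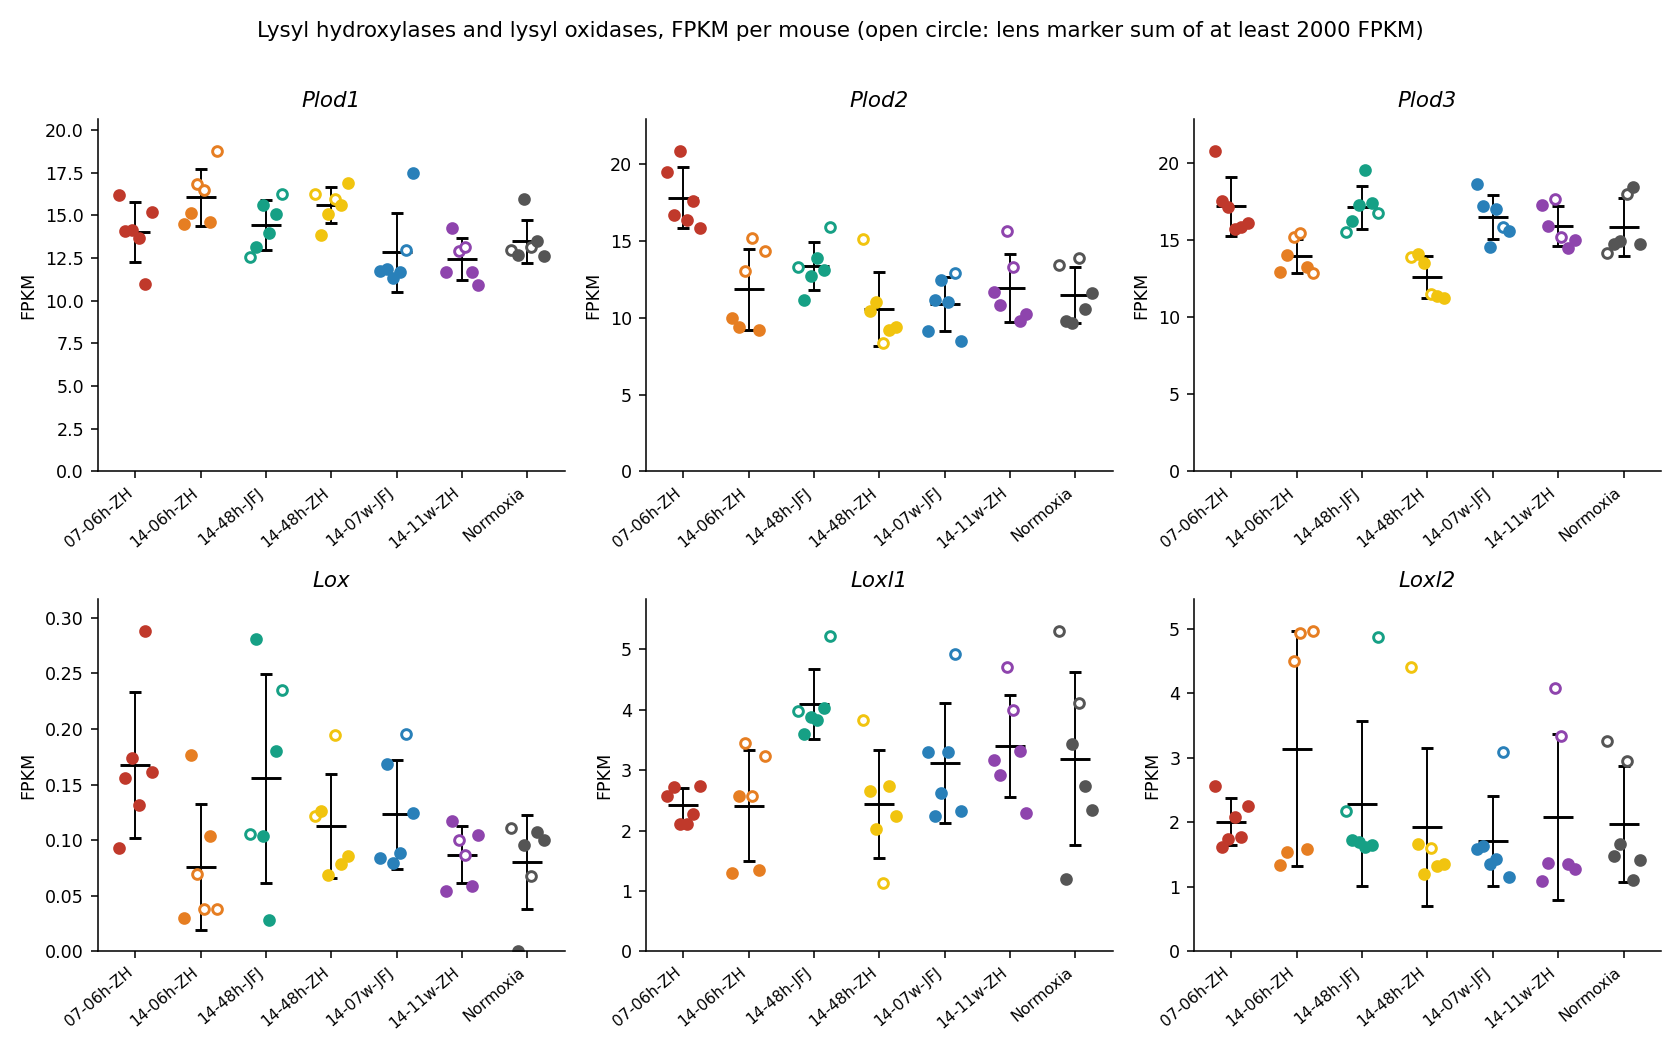
Level in FPKM (vertical axis, from 0) of the lysyl hydroxylases and lysyl oxidases in each of the 42 retinas, by group along the horizontal axis. Circles are mice, open where the lens marker sum was at least 2000 FPKM, and black marks are the mean and SD of 6 mice. The 6 *Plod2* values of 07-06h-ZH lie above all normoxic values, and the highest *Loxl2* values are open circles.

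The lysyl oxidases passed the test in none of the 6 comparisons with Normoxia by limma, and 1 of these 18 tests had an unadjusted p under 0.05 (*Lox* in 07-06h-ZH). edgeR called 0 of those it tested. *Lox*, the founding member of the family, was near the detection limit, with 0.09, 0.16 and 0.29 FPKM (6 to 23 reads) in 07-06h-ZH, against 0, 0.10 and 0.11 FPKM (0 to 9 reads) in Normoxia. Mouse 2 of Normoxia had 0 reads, which does not show that *Lox* was absent there. The values of 5 of the 6 hypoxic mice lay above all normoxic mice. The log2 fold change of 0.58 (SE 0.25) had an unadjusted p of 0.032 and an adjusted p of 0.071, and across 25 alternatives the adjusted p ranged from 0.035 to 0.31, with 6 below the threshold. The pseudocount of 0.1 FPKM is of the size of the level itself and understates this fold change. Against 14-06h-ZH (0.03 to 0.18 FPKM, 2 to 12 reads) the log2 fold change was 0.62 (SE 0.24, adjusted p = 0.044), and it was 0.43 (adjusted p = 0.34) without the lens-rich libraries.

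*Loxl2*, which cross-links basement membrane collagen IV, tracked the lens markers. It ranged from 1.61 to 4.97 FPKM (median 3.71) in the 12 lens-rich libraries and from 1.09 to 2.57 FPKM (median 1.56) in the other 30. In 14-06h-ZH the lens-rich mice 3, 4 and 6 had 4.50, 4.93 and 4.97 FPKM, and the others 1.34, 1.54 and 1.58 FPKM. The log2 fold change of 0.53 over Normoxia had a 95% interval of -0.39 to 1.44, and without the lens-rich libraries it was 0.08 (95% interval -0.32 to 0.48). In 07-06h-ZH, which has no lens-rich library, *Loxl2* had 1.61, 1.93 and 2.57 FPKM. Its log2 fold change over all normoxic mice was 0.11 (adjusted p = 0.74), and over the 4 normoxic mice with low lens RNA it was 0.47 (SE 0.17, adjusted p = 0.040). The genes closest to *Loxl2* over the 42 mice were *Col4a2*, *Itga6* and *Col4a1* (each r = 0.95), 2 of which encode collagen IV chains. *Gm37513* overlaps *Loxl2* on the opposite strand.

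**Figure D4:**
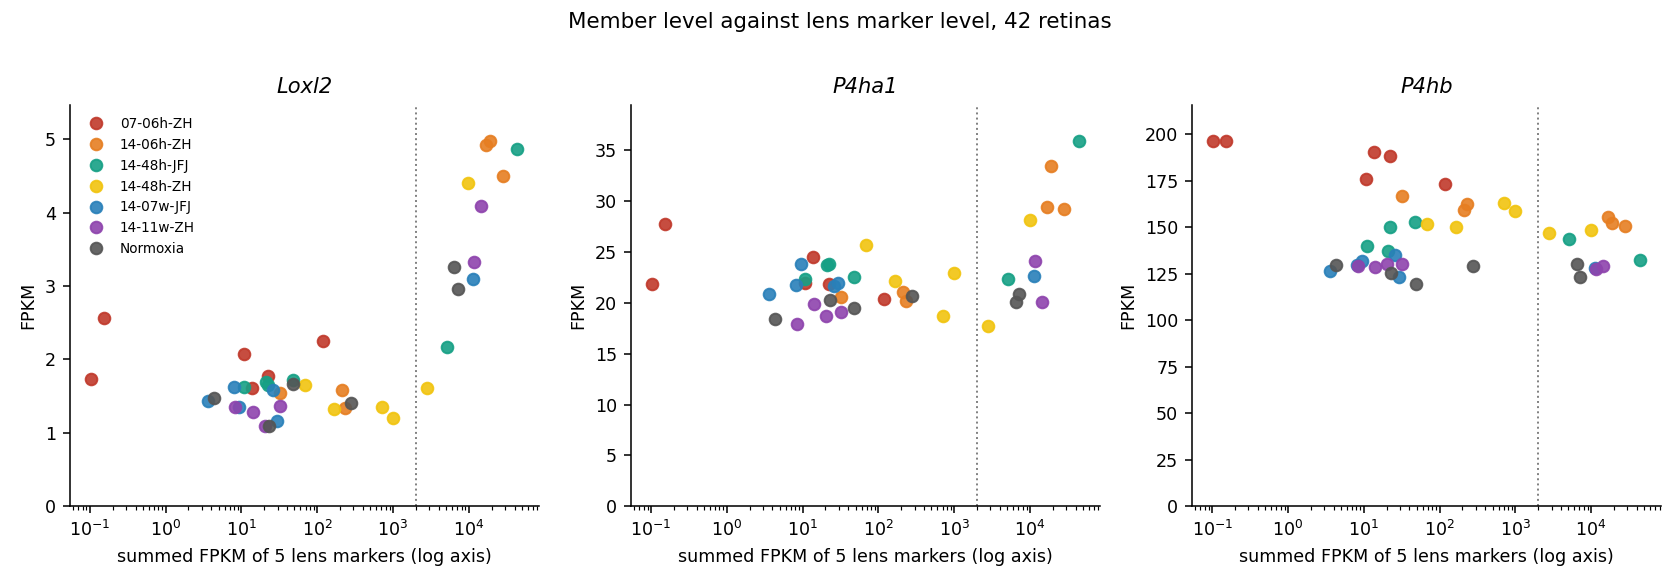
FPKM of *Loxl2*, *P4ha1* and *P4hb* (vertical axes, from 0) against the summed FPKM of 5 lens markers (horizontal axis, log scale) in 42 retinas, coloured by group. The dotted line marks 2000 FPKM. *Loxl2* reaches 4.97 FPKM right of the line and at most 2.57 FPKM left of it, while *P4hb* is highest in 07-06h-ZH at low lens sums.

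*Loxl1*, an elastin cross-linking enzyme, ranged from 1.202 to 5.31 FPKM among normoxic mice. In 07-06h-ZH it had 2.11 to 2.74 FPKM (log2 fold change over Normoxia -0.26, 95% interval -0.81 to 0.29). Without mouse 2 of Normoxia, which had the lowest normoxic value, it was -0.50 and was called lower (adjusted p = 0.036). The lens-rich libraries had 1.14 to 5.31 FPKM (median 3.99) and the others 1.202 to 4.04 FPKM (median 2.64). With the lens marker level as a covariate the log2 fold change was 0.20 (adjusted p = 0.54) in 07-06h-ZH, and in 14-06h-ZH it was -0.69 and was called lower (adjusted p = 0.045), compared with -0.35 (adjusted p = 0.51) without the covariate. Without the lens-rich libraries *Loxl1* in 14-06h-ZH differed from Normoxia by -0.43 (adjusted p = 0.44).

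**Figure D5:**
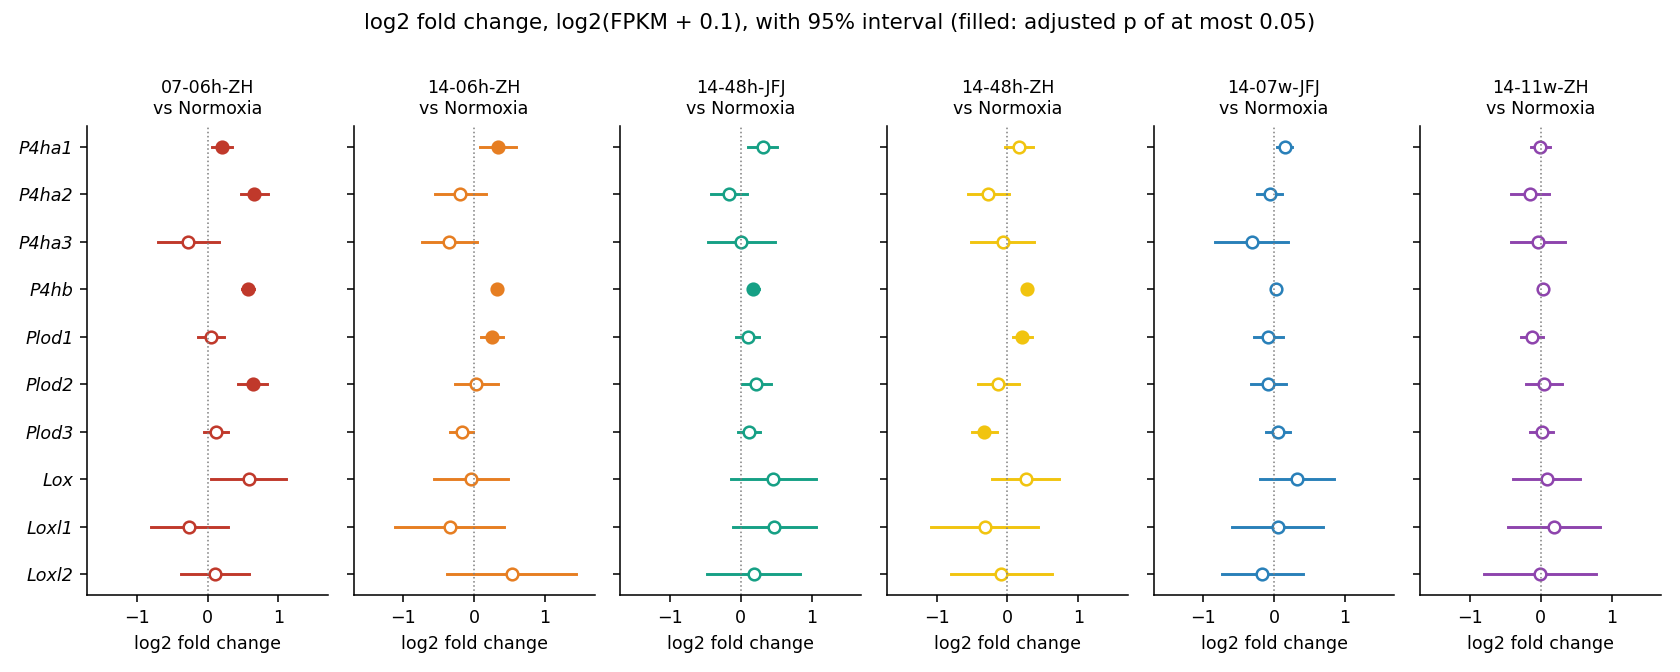
Log2 fold change of the 10 genes over Normoxia on log2(FPKM + 0.1), 1 panel per hypoxic group. Points are estimates with 95% intervals over 12 mice, filled where the adjusted p was at most 0.05. The panel of 07-06h-ZH has 4 filled points, those of 14-06h-ZH and 14-48h-ZH have 3 each (*Plod3* left of 0 in 14-48h-ZH), that of 14-48h-JFJ has 1, and both long exposures have 0.

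Hypobaric exposure was compared with Normoxia and with its normobaric counterpart. Against Normoxia, 14-48h-JFJ had 1 of the 10 genes called higher (*P4hb*) and 0 lower, with 2.67% of 17100 genes called higher and 2.65% lower. No member was lower at an unadjusted p under 0.05 or by edgeR. Of the markers of other cell types, smooth muscle and pericyte genes were called higher in 2 of 6 (sum 48.6 to 116 FPKM in 14-48h-JFJ, against 26.3 to 82.8 FPKM in Normoxia), epithelial genes in 2 of 4 (3.21 to 15.1 FPKM in 14-48h-JFJ, against 1.91 to 4.59 FPKM in Normoxia), endothelial genes in 2 of 5 (53.2 to 61.3 FPKM in 14-48h-JFJ, against 49.5 to 56.3 FPKM in Normoxia) and stromal fibroblast genes in 1 of 6 (16.4 to 37.9 FPKM in 14-48h-JFJ, against 5.82 to 20.9 FPKM in Normoxia). Their part in the result was not tested. *P4ha1* had 22.3, 23.2 and 35.9 FPKM in 14-48h-JFJ, above all 6 normoxic mice (log2 fold change 0.31, SE 0.10, adjusted p = 0.074). Without mouse 6, whose lens marker sum was 43730 FPKM, it was 0.20 and passed the test (adjusted p = 0.022), and 3 of 28 alternatives in all passed. In 14-07w-JFJ, *P4ha1* again lay above all normoxic mice, the highest of which had 20.87 FPKM, with 20.88, 21.8 and 23.9 FPKM, but did not pass (log2 fold change 0.15, SE 0.05, unadjusted p = 0.0073, adjusted p = 0.12). By limma, 0 of the 10 genes were called in 14-07w-JFJ, where 1.47% of 16984 genes were called higher and 0.577% lower, and 0 in 14-11w-ZH, where 2.02% of 17092 genes were called higher and 1.94% lower. At an unadjusted p under 0.05 there was 1 (*P4ha1*) in 14-07w-JFJ and 0 in 14-11w-ZH, and edgeR called 0 in both.

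At 48 h, 14-48h-JFJ differed from 14-48h-ZH in 4 of the 10 genes, 3 higher (*Plod2*, *Plod3* and *Loxl1*) and 1 lower (*P4hb*), against a background of 30.9% of 17099 genes called higher and 8.66% lower. The median of all genes was shifted by 0.11 on the log2 scale in this comparison, and median-of-ratios scaling changed the calls over all genes to 3111 higher and 3113 lower, compared with 5283 and 1481 on FPKM. *Plod3* had 15.5, 17.0 and 19.6 FPKM in 14-48h-JFJ, against 11.3, 12.5 and 14.1 FPKM in 14-48h-ZH, without overlap (log2 fold change 0.44, SE 0.07, adjusted p = 1.3e-04, and 0.34, adjusted p = 9.8e-04, with median-of-ratios scaling). *Loxl1* had 3.61, 3.93 and 5.23 FPKM in 14-48h-JFJ, against 1.14, 2.44 and 3.83 FPKM in 14-48h-ZH, where 1 mouse reached the range of the hypobaric group (log2 fold change 0.80, SE 0.21, adjusted p = 0.0070, and 0.70, adjusted p = 0.019, rescaled). The pigment cell marker sum was 10.6 to 375 FPKM in 14-48h-JFJ and 6.20 to 34.9 FPKM in 14-48h-ZH, with 5 of 6 markers called higher, the stromal fibroblast sum 16.4 to 37.9 FPKM and 7.46 to 17.9 FPKM with 3 of 6 called higher, and the smooth muscle and pericyte sum 48.6 to 116 FPKM and 33.1 to 40.9 FPKM with 5 of 6 called higher. Red blood cell markers were called higher in 5 of 5, with a sum of 75.1 to 418 FPKM in 14-48h-JFJ and 47.8 to 86.2 FPKM in 14-48h-ZH. Of 5 rod markers, in contrast, 3 were called lower and 1 higher. The rod sum was 34239 to 40237 FPKM in 14-48h-JFJ and 47466 to 51667 FPKM in 14-48h-ZH, without overlap. Muller glia markers were also called lower in 3 of 5 and higher in 1, with overlapping sums. None of these markers was at 0 in all mice of a group. With the pigment marker level as a covariate, *Loxl1* had a log2 fold change of 0.66 (adjusted p = 0.22) and *Plod3* one of 0.54 (adjusted p = 0.0043). The part of these cell types and of other tissues in the results was not tested.

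The other 2 calls lay near the threshold. *Plod2* had 11.2 to 15.9 FPKM in 14-48h-JFJ and 8.36 to 15.1 FPKM in 14-48h-ZH (log2 fold change 0.35, SE 0.12, adjusted p = 0.034), and 0.25 (adjusted p = 0.15) rescaled. Its call was also lost when any 1 of 9 of the 12 mice was left out (adjusted p of 0.0503 to 0.074). *P4hb* had 132 to 153 FPKM in 14-48h-JFJ and 147 to 163 FPKM in 14-48h-ZH (log2 fold change -0.10, SE 0.04, adjusted p = 0.047), and -0.21 (adjusted p = 2.5e-04) rescaled. On FPKM this call was lost when any 1 of 8 of the 12 mice was left out (adjusted p of 0.060 to 0.11). *Plod1* did not pass on FPKM (-0.12, adjusted p = 0.18) and was called lower with median-of-ratios scaling (-0.22, adjusted p = 0.022), on normalized counts and by edgeR. After long exposure, 14-07w-JFJ and 14-11w-ZH differed in 0 of the 10 genes by limma, where 1.07% of 17037 genes were called higher and 0.470% lower. edgeR called 0 there as well. *P4ha1*, the 1 gene with an unadjusted p under 0.05, had a p of 0.028, with a log2 fold change of 0.15 (95% interval 0.02 to 0.29).

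For the time course at 14% O2, 14-48h-ZH and 14-06h-ZH also differed in 0 of the 10 genes by limma (0.740% of 17172 genes higher and 0.932% lower), and *Plod3* came closest (log2 fold change -0.15, unadjusted p = 0.055). edgeR called 0 and no unadjusted p was under 0.05. For the oxygen level at 6 h, 5 of the 10 genes were higher in 07-06h-ZH than in 14-06h-ZH (*P4ha2*, *P4hb*, *Plod2*, *Plod3* and *Lox*) and 0 lower, against 25.8% of 17048 genes called higher and 19.7% lower. *Plod1* had a log2 fold change of -0.19 (unadjusted p = 0.040, adjusted p = 0.080), and passed with median-of-ratios scaling (-0.23, adjusted p = 0.043) and with edgeR. Red blood cell markers were called higher in 5 of 5, with a sum of 87.6 to 1877 FPKM in 07-06h-ZH and 33.6 to 83.2 FPKM in 14-06h-ZH, and their part in the results was not tested. The lens marker sum was 0.10 to 118 FPKM in 07-06h-ZH and 32.1 to 28270 FPKM in 14-06h-ZH, with all 5 markers called lower in 07-06h-ZH. With the lens marker level as a covariate, *P4ha2* (1.24, adjusted p = 4.6e-04) and *Plod2* (0.85, adjusted p = 0.0018) kept their calls, and *P4hb* (0.12, adjusted p = 0.097), *Plod3* (0.27, adjusted p = 0.096) and *Lox* (0.42, adjusted p = 0.45) did not.

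Further genes of collagen maturation were read from 7 lists that hold 45 genes. In 07-06h-ZH against Normoxia, 7 of 43 tested genes were called higher and 10 lower, with a median log2 fold change of -0.03. That is near the share over all genes (18.0% higher and 24.0% lower, median -0.03), against which the single lists are read as well. Of the 8 genes of disulfide formation, 2 were higher and 5 lower. *Ero1l*, the oxidase that recharges disulfide isomerases, averaged 102 FPKM in 07-06h-ZH and 30.7 FPKM in Normoxia (log2 fold change 1.73, SE 0.06, adjusted p = 5.1e-12), and *Prdx4*, a peroxiredoxin of the endoplasmic reticulum, averaged 15.3 FPKM and 7.15 FPKM (1.09, SE 0.09, adjusted p = 6.3e-08). *Pdia6*, a relative of *P4hb*, was lower (54.3 FPKM in 07-06h-ZH and 79.0 FPKM in Normoxia, log2 fold change -0.54, adjusted p = 5.8e-07). Under milder hypoxia *Ero1l* was called higher in 14-06h-ZH (0.52, adjusted p = 1.9e-06), 14-48h-ZH, 14-48h-JFJ and 14-07w-JFJ, and *Prdx4* in 14-06h-ZH, 14-48h-JFJ, 14-07w-JFJ (0.47, adjusted p = 0.012) and 14-11w-ZH. The collagen galactosyltransferase *Colgalt1* averaged 17.7 FPKM in 07-06h-ZH and 26.8 FPKM in Normoxia (-0.61, adjusted p = 9.6e-06). Of 8 chaperones, 1 was higher and 2 lower, among them *Fkbp14* (-0.58, adjusted p = 1.6e-05), and of 6 propeptide processing genes tested, 1 was higher (*Pcolce2*, 0.35, adjusted p = 0.049). Against Normoxia, the 45 genes gave 3 higher and 12 lower in 14-06h-ZH (9.54% and 24.8% of all genes), 2 and 12 in 14-48h-ZH (9.48% and 26.7%), 4 and 1 in 14-48h-JFJ (2.67% and 2.65%), 3 and 0 in 14-07w-JFJ (1.47% and 0.577%), and 1 and 1 in 14-11w-ZH (2.02% and 1.94%). The lower calls of 14-06h-ZH and 14-48h-ZH were thus near the background.

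Of 11 collagen and elastin genes, 2 were higher and 2 lower in 07-06h-ZH (background 18.0% and 24.0%), among them *Eln* (0.46, SE 0.10, adjusted p = 0.0012) and the low *Col3a1* (-1.33, SE 0.42, adjusted p = 0.018), which averaged 0.14 FPKM in 07-06h-ZH and 0.44 FPKM in Normoxia. In 14-06h-ZH 0 were higher and 5 lower (background 9.54% and 24.8%), led by *Col2a1* (48.2 FPKM in 14-06h-ZH and 75.6 FPKM in Normoxia, -0.65, adjusted p = 2.1e-07) and *Col6a1* (28.4 FPKM and 43.5 FPKM, -0.61, adjusted p = 5.7e-06). In 14-48h-ZH 0 were higher and 4 lower (background 9.48% and 26.7%). In both comparisons median-of-ratios scaling left fewer lower calls over all genes than FPKM, 2975 against 4240 in 14-06h-ZH and 2934 against 4553 in 14-48h-ZH, and these lists were not recounted with it. Of 6 prolyl 3-hydroxylation genes, 2 were lower in 14-06h-ZH and 3 in 14-48h-ZH, with *P3h3* at -0.51 (adjusted p = 1.4e-04) in 14-06h-ZH and -0.67 (adjusted p = 3.6e-06) in 14-48h-ZH. Of the lysyl oxidases outside the 10 genes, *Loxl4* averaged 0.82 FPKM in 07-06h-ZH, 0.92 FPKM in each of 14-06h-ZH, 14-48h-JFJ and 14-07w-JFJ, against 0.38 FPKM in Normoxia, and was called higher in these 4 groups (log2 fold changes between 0.97 and 1.11, highest adjusted p = 0.035). In 14-48h-JFJ against 14-48h-ZH, 19 of 44 tested genes were higher and 1 lower, with a median log2 fold change of 0.24, beside 30.9% and 8.66% of all genes and a median of 0.11. Over all genes the calls were 3111 higher and 3113 lower with median-of-ratios scaling, with which this list was not recounted.

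The genes most similar in pattern to the remaining members over the 42 mice, again as a description, were *Gpi1* (r = 0.95), *Eno1* (0.93) and *Map3k1* (0.92) for *P4hb*, *Ccdc88c* (0.82) and *Slc3a2* (0.80) after *Plod2* for *P4ha2*, and *Htra1* (0.84) and *Bnip3l* (0.82) after *P4ha2* for *Plod2*. For *P4ha1* the closest was *Pakap* (0.75), for *Plod1* *Chst11* (0.71), for *Plod3* *Mcoln1* (0.82) and for *Loxl1* *Chrnb1* (0.83). For *P4ha3* (*Bcap31*, 0.59) and *Lox* (*Kcnj13*, 0.62), whose values rest on few reads, r was lower.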

How the data were processed

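The members and the gene lists were chosen with earlier results of these data known. Retinas were isolated through a corneal slit (at JFJ without a microscope), and per the submitters' processing notes the reads were aligned with STAR. Its version, the counting tool and the strand setting are not given in the sources used here. Gene coordinates are those of GRCm38. The deposited table holds FPKM per gene and mouse, made by the authors, and a normalized signal, for which per the file headers the authors scaled gene counts. That signal came out as whole reads for 100% of values within 0.1 steps, but in 6 libraries the step is close to 1, where whole values alone cannot show that the step is right. P-values measure the spread between the mice of these groups.

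Each comparison used the 12 mice of its groups. Where over 3 mice of a group had 0 FPKM a gene was dropped, and limma 3.58.1 (trend and robust options, R 4.3.3) was run on log2(FPKM + 0.1) with Benjamini-Hochberg adjustment over all genes. Calls needed an adjusted p no greater than 0.05. Fold changes are on this log2 scale, which understates those of low genes. The study's methods use edgeR on counts, which was run here on the recovered reads (edgeR 4.0.16) as an alternative. The test was checked on simulated data with known changes. That check used the same spread for all genes and required recovery only at a log2 fold change of 1. It did not cover changes as small as many of those called here. Nor did it cover genes with as few reads as *Lox* and *P4ha3*, or differences between libraries in RNA of neighbouring tissues. All 10 members are described, with up to 3 called genes per list and comparison by smallest p, and the 3 most correlated genes per member. Alternatives were other pseudocounts, filters, scalings and covariates, GC content taken from transcripts, and each mouse left out in 8 comparisons. Those on lens and pigment RNA, edgeR, GC and normalized counts were chosen after seeing the data. Python 3.11.15 was used for summaries.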

Additional observations from a re-analysis of the deposited data

Results flagged for a closer look

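In 11 of the 70 combinations of gene and group, 1 mouse stood apart from the other 5 on log2(FPKM + 0.1), with a gap to its nearest neighbour, as a share of the range of the group, above Dixon's critical value for 6 samples. For independent and normally distributed values, chance gives this in about 1 of 20 groups. The 70 combinations share the same mice, so the 11 cannot be set against that rate. Mouse 6 of 14-48h-JFJ was apart in *P4ha1* (35.9 FPKM, others 22.3 to 23.9 FPKM, gap 0.859), in *Loxl1* (5.23 FPKM, others 3.61 to 4.04 FPKM, gap 0.699) and in *Loxl2* (4.87 FPKM, others 1.62 to 2.18 FPKM, gap 0.737), and had a lens marker sum of 43730 FPKM. *Loxl2* was also apart in mouse 1 of 14-48h-ZH (4.41 FPKM, others up to 1.66 FPKM, gap 0.758, lens sum 9866 FPKM) and mouse 5 of 14-07w-JFJ (3.10 FPKM, others 1.16 to 1.63 FPKM, gap 0.659, lens sum 11320 FPKM). *P4ha2* was apart in mouse 3 of 14-11w-ZH (28.8 FPKM, others 16.7 to 20.5 FPKM, gap 0.628, lens sum 14510 FPKM). The part of lens RNA in these values was not tested.

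*Plod1* was apart in mouse 6 of 14-07w-JFJ (17.5 FPKM, others 11.3 to 12.9 FPKM, gap 0.689, lens sum 29.4 FPKM) and mouse 3 of Normoxia (15.96 FPKM, others 12.6 to 13.5 FPKM, gap 0.713, lens sum 48.2 FPKM). Low values stood apart for *P4ha3* in mouse 6 of 07-06h-ZH (0.16 FPKM, others 0.31 to 0.41 FPKM, gap 0.680) and mouse 1 of 14-48h-JFJ (0.17 FPKM, others 0.42 to 0.62 FPKM, gap 0.682), and for *Lox* in mouse 2 of Normoxia (0 FPKM, others 0.07 to 0.11 FPKM, gap 0.694).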

How the results depend on the processing

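Counts of called genes among the 10 members changed by more than 1.5 times as follows. For 14-06h-ZH against Normoxia (3 higher, 0 lower), 1 was higher with the Y-linked covariate, 1 higher and 1 lower without lens-rich libraries, and 2 lower with the lens covariate. Over all genes, 1632 were called higher and 4240 lower in the main fit. In these settings, in the same order, the calls were 1203 and 2944, 896 and 2624, and 1594 and 3898. For 14-48h-ZH against Normoxia (2 higher, 1 lower), 1 was higher with all 7 groups in one fit and without lens-rich libraries, and 0 lower with the Y-linked covariate. Over all genes, 1615 were called higher and 4553 lower in the main fit. In these settings, in the same order, the calls were 1450 and 4147, 1159 and 3545, and 1077 and 3317. For 14-48h-JFJ against Normoxia (1 higher), 0 were higher with no filter, with no trend and robust options and with the Y-linked or pigment covariate, and 2 with the lens covariate or without lens-rich libraries. Over all genes, 457 were called higher in the main fit. In these settings, in the same order, the higher calls were 161, 257, 112, 315, 561 and 378. For 07-06h-ZH against 14-06h-ZH (5 higher, 0 lower), 2 were higher with the lens covariate, and 1 was lower with median-of-ratios scaling, normalized counts and edgeR with TMM or median-of-ratios. Over all genes, 4397 were called higher and 3356 lower in the main fit, and 2596 and 2051 with the lens covariate. The lower calls were 3819 to 3936 in the settings with 1 member lower. For 14-48h-JFJ against 14-48h-ZH (3 higher, 1 lower), 1 was higher with the pigment covariate, 0 lower with no filter, no trend and robust options, the replicate block, GC correction, the Y-linked or pigment covariate and without lens-rich libraries, and 2 lower with median-of-ratios scaling, normalized counts and edgeR. Over all genes, 5283 were called higher and 1481 lower in the main fit, and 2585 and 597 with the pigment covariate. The lower calls were 597 to 1495 in the settings with 0 members lower and 2843 to 3198 in those with 2. Their causes were not tested. No called fold change turned its sign.

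With each mouse left out in turn, the members called higher ranged from 3 to 5 in 07-06h-ZH, 2 to 3 in 14-06h-ZH, 2 to 3 in 14-48h-ZH and 1 to 2 in 14-48h-JFJ against Normoxia, and from 2 to 3 in 14-48h-JFJ against 14-48h-ZH; those called lower ranged from 0 to 1, 0 to 1, 1 to 2, 0 to 0 and 0 to 1 in the same order, and stayed at 0 in the other 3 comparisons refitted. In each group where only 3 of 6 mice expressed Y-linked genes, these were replicates 1 to 3, so the replicate number goes with Y-linked expression there. In no comparison did all 6 pairs deviate together (at most 4 pairs with r above 0.1), and in none did every mouse correlate best with its own number. This cannot show that same-numbered mice share nothing else. The replicate block took *P4hb* (-0.10, adjusted p = 0.091) and *Plod2* (0.35, adjusted p = 0.051) in 14-48h-JFJ against 14-48h-ZH above the threshold of 0.05 and changed no other call. The Y-linked covariate was not run for 14-11w-ZH against Normoxia, where all 12 mice express these genes, and the GC column named in advance is not in the file used here. Values of *Lox* and *P4ha3* are limited by their 0 to 24 reads per library.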
